A study of Mus musculus with 6 samples.

Results

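Chemokine ligands are small secreted proteins that direct the migration of leukocytes. Here they are the 40 genes, of 30777 in the deposited table, whose symbol begins with Ccl, Cxcl, Cx3cl or Xcl followed by a digit. Of the 40, 35 were expressed highly enough to be tested, and 28 had a mean of at least 1 FPKM over the 6 libraries (a level corrected for the length of the transcript and the depth of the library).

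RNA was sequenced from whole colon of BALB/c mice, an inbred laboratory strain, in 2 groups with 3 libraries each. The 5-Fu+BBR group received 5-fluorouracil, a pyrimidine analogue used in chemotherapy that injures dividing cells of the gut lining, together with berberine, a plant alkaloid. The 5-Fu group received 5-fluorouracil without berberine, so 5-fluorouracil was common to every library. Doses, times and ages are not given in the labels, and no library of mice without 5-fluorouracil was analysed here. The comparison addresses which colon genes are associated with berberine on top of 5-fluorouracil. Whether each library stands for a separate animal is not stated in the labels, and p-values therefore reflect only how much the libraries of a group varied, which may be technical. Values of a group are always given for its libraries 1 to 3 in that order.

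Library totals of the estimated counts ranged from 53824752 to 63831168. The 8 colon epithelium markers, such as Epcam and Krt8, summed to 4369, 4106 and 4366 FPKM in 5-Fu+BBR and to 4094, 3715 and 4489 FPKM in 5-Fu, and none of them was at 0 in any library. The 8 kidney markers summed to 15.5, 149 and 143 FPKM in 5-Fu+BBR and to 15.7, 15.9 and 18.0 FPKM in 5-Fu. The sum rested mainly on Kap, and of the 8 only Nphs1 had a lower mean in 5-Fu+BBR. Libraries 2 and 3 of 5-Fu+BBR thus carried kidney transcripts that the other 4 libraries held at a far lower level. Values from 5-Fu+BBR library 1 alone against the 5-Fu libraries are therefore given beside several results.

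Chemokines bind receptors with 7 membrane-spanning segments on leukocytes and, held on vessel walls and matrix, form gradients along which these cells move. Homeostatic chemokines are made constantly by stromal, endothelial and epithelial cells and place lymphocytes and dendritic cells in lymphoid tissue and mucosa. Inflammatory chemokines are switched on by cytokines and microbial products. Among them the ligands of CXCR3 follow interferon, and the ligands of CXCR2 recruit neutrophils. In the colon, epithelial cells, macrophages, fibroblasts and isolated lymphoid follicles all contribute ligands.

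With edgeR's quasi-likelihood test, no chemokine ligand reached an adjusted p under 0.05, a level reached by 0.0746% of all 20101 genes tested. All 4 tested ligands that attract neutrophils had a lower mean in 5-Fu+BBR. The lymphoid homing ligand Ccl21a and the CCR6 ligand Ccl20 were higher in every 5-Fu+BBR library than in any 5-Fu library, and the membrane-bound ligand Cx3cl1 was lower in every one. The interferon-induced ligands spread widely within both groups and had no common direction.

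At an unadjusted p under 0.05, 4 ligands were higher in 5-Fu+BBR (Ccl20, Ccl21a, Ccl6 and Ccl5) and 2 were lower (Cxcl1 and Cx3cl1). These are 11.4% and 5.71% of the 35, where 9.48% of all genes tested were higher and 6.08% lower by the same rule (15.6% in either direction). The shares are thus near those of all genes. DESeq2, run as an alternative, passed 3 ligands at an adjusted p under 0.05, where 6.48% of the genes to which it gave an adjusted p passed. They were Ccl20 (adjusted p = 0.0255) and Ccl21a (adjusted p = 0.0185), both higher, and Cxcl1 (adjusted p = 0.0311), lower.

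The FPKM of the groups did not overlap for 4 ligands that were higher in 5-Fu+BBR (Ccl20, Ccl21a, Ccl25 and Xcl1) and for 2 that were lower (Ccl24 and Cx3cl1). These shares of 11.4% and 5.71% compare with 11.5% and 8.47% of all genes tested, 19.9% in all. A positive log2 fold change, 5-Fu+BBR minus 5-Fu, was found for 22 of the 35, against 50.7% of all genes. The median log2 fold change was 0.42 over the 35 ligands and 0.01 over all genes.

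**Figure D1:**
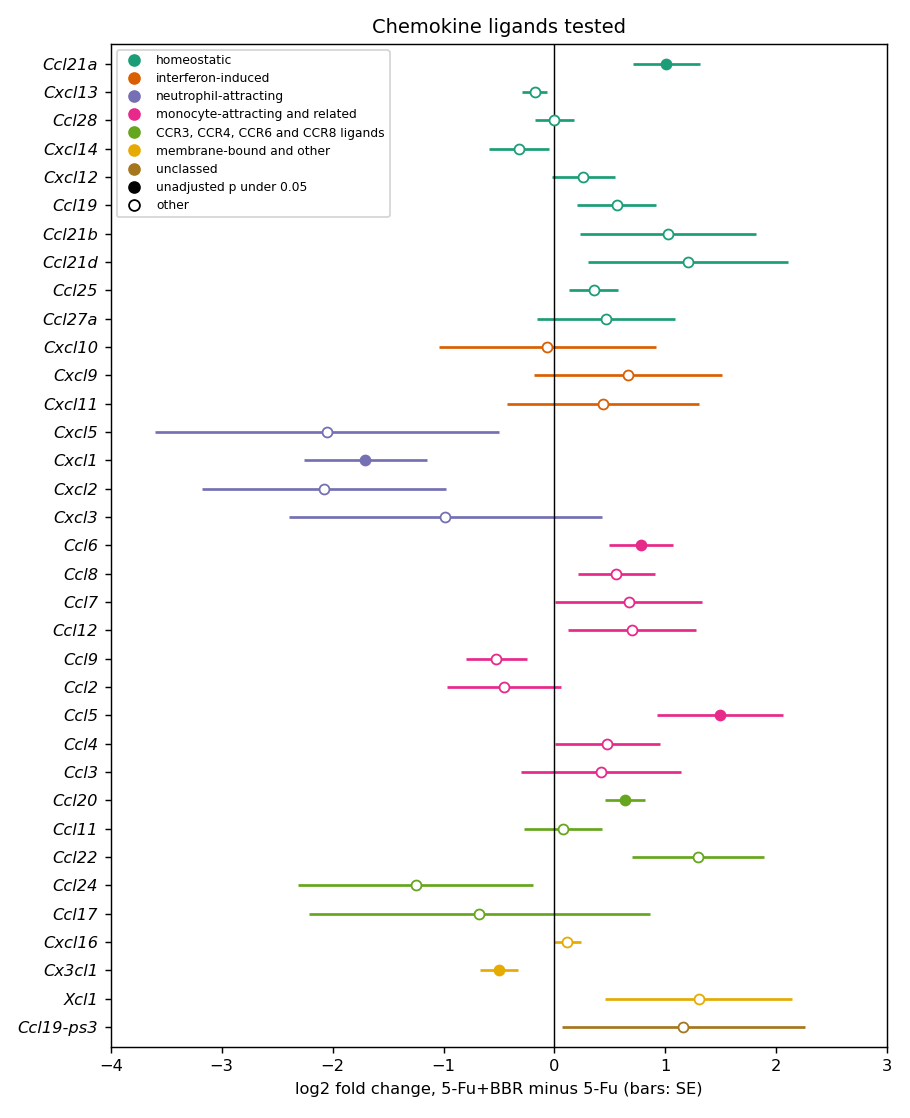
Log2 fold change (5-Fu+BBR minus 5-Fu) of the 35 tested chemokine ligands, grouped by class; points are the edgeR estimates and bars are ± 1 SE from 3 libraries per group, with filled points at an unadjusted p under 0.05. The 4 neutrophil-attracting ligands all lie below 0 with wide bars, of which only that of Cxcl3 reaches 0. Ccl20, Ccl21a and Cx3cl1 are among the ligands with narrower bars that do not reach 0.

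The homeostatic class held 11 genes of the table, of which 10 were tested. Of these, 7 had a positive and 3 a negative log2 fold change, with a median of 0.41. Its summed level was 175, 189.9 and 145 FPKM in 5-Fu+BBR, against 107, 154 and 141 FPKM in 5-Fu, so the groups overlapped.

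Ccl21a (ENSMUSG00000094686, chromosome 4, 42772860 to 42773993 of GRCm38) encodes the CCR7 ligand that brings naive lymphocytes and dendritic cells into lymphoid tissue, and over the 6 libraries it had the highest mean level of the class, although Cxcl13 was higher in libraries 1 and 2 of 5-Fu. It was at 78.1, 84.1 and 54.3 FPKM in 5-Fu+BBR, against 21.9, 41.5 and 43.7 FPKM in 5-Fu. Every 5-Fu+BBR library lay above every 5-Fu library. The log2 fold change was 1.01 ± 0.30 (SE), 2.01-fold, with an unadjusted p of 0.0131 and an adjusted p of 0.212 by edgeR. Library 1 of 5-Fu+BBR alone gave a log2 fold change of 1.16.

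Ccl21b and Ccl21d are further Ccl21 copies on chromosome 4, and Ccl19 encodes the other CCR7 ligand. Ccl21b was at 3.92, 4.80 and 0.522 FPKM in 5-Fu+BBR, against 1.14, 0.847 and 2.43 FPKM in 5-Fu. Ccl21d was at 3.27, 4.44 and 0.399 FPKM in 5-Fu+BBR, against 0.994, 0.416 and 1.99 FPKM in 5-Fu. In both genes 5-Fu+BBR library 3 was the lowest of the 6, unlike in Ccl21a. Over 402 aligned transcript bases Ccl21a and Ccl21b differ at 2, so reads can be split between them and their single values are uncertain. Ccl21a exceeded Ccl21b and Ccl21d in every library.

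Ccl19 was at 6.63, 5.20 and 4.63 FPKM in 5-Fu+BBR, against 2.54, 6.19 and 2.65 FPKM in 5-Fu (log2 fold change 0.56 ± 0.36, adjusted p = 0.502 by edgeR). Only 5-Fu library 2 overlapped with 5-Fu+BBR. Over fits that each left out 1 library, the log2 fold change of Ccl19 ran from 0.34 to 1.03, highest without that library.

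Cxcl13, the CXCR5 ligand that gathers B cells into follicles, was at 36.2, 43.9 and 35.2 FPKM in 5-Fu+BBR, against 40.6, 47.0 and 42.4 FPKM in 5-Fu. The groups overlapped, and the log2 fold change was −0.18 ± 0.11 (adjusted p = 0.491 by edgeR). Ccl28, which mucosal epithelium secretes for IgA-producing cells bearing CCR10, was at 29.3, 29.1 and 34.2 FPKM in 5-Fu+BBR, against 24.4, 31.2 and 36.2 FPKM in 5-Fu. Its log2 fold change was −0.00 ± 0.18.

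Cxcl12, the CXCR4 ligand made by stromal cells, was at 7.29, 8.10 and 6.43 FPKM in 5-Fu+BBR, against 5.47, 9.43 and 3.61 FPKM in 5-Fu. Cxcl14, a ligand expressed constantly in epithelia, was at 9.50, 9.27 and 7.58 FPKM in 5-Fu+BBR, against 8.79, 17.2 and 7.40 FPKM in 5-Fu. In both genes 5-Fu library 2 was the highest of the 6 and 5-Fu library 3 the lowest. Ccl25, the CCR9 ligand typical of small intestine and thymus, was at 0.685, 0.740 and 0.907 FPKM in 5-Fu+BBR, against 0.513, 0.645 and 0.647 FPKM in 5-Fu, without overlap (log2 fold change 0.35 ± 0.22, adjusted p = 0.484 by edgeR). Ccl27a, an epithelial CCR10 ligand, stayed at or below 0.211 FPKM in every library.

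Summed lymphocyte markers were higher in 5-Fu+BBR as well. The 7 B cell markers summed to 84.1, 118 and 102 FPKM in 5-Fu+BBR, against 12.9, 67.1 and 27.7 FPKM in 5-Fu. The 10 T and NK cell markers summed to 17.6, 29.4 and 27.9 FPKM in 5-Fu+BBR, against 9.23, 11.6 and 11.9 FPKM in 5-Fu. Of these 10, Cd3d, Cd3e and Ncr1 overlapped between the groups and the others did not. Cd3d in 5-Fu+BBR library 1, at 0.535 FPKM, was below every 5-Fu library. No marker of these lists was at 0 in any library. The 5 markers of lymphoid stroma and vessels summed to 80.5, 78.3 and 65.9 FPKM in 5-Fu+BBR, against 95.3, 87.2 and 74.4 FPKM in 5-Fu, with 3 of them at a positive and 2 at a negative log2 fold change. The sum rested mainly on Ltbr and Chst4, the 2 negative ones, whereas Glycam1 was higher in every 5-Fu+BBR library than in any 5-Fu library. The part of these cells in the level of Ccl21a was not tested. In whole tissue, fewer cells of a type and less RNA per cell cannot be told apart.

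**Figure D2:**
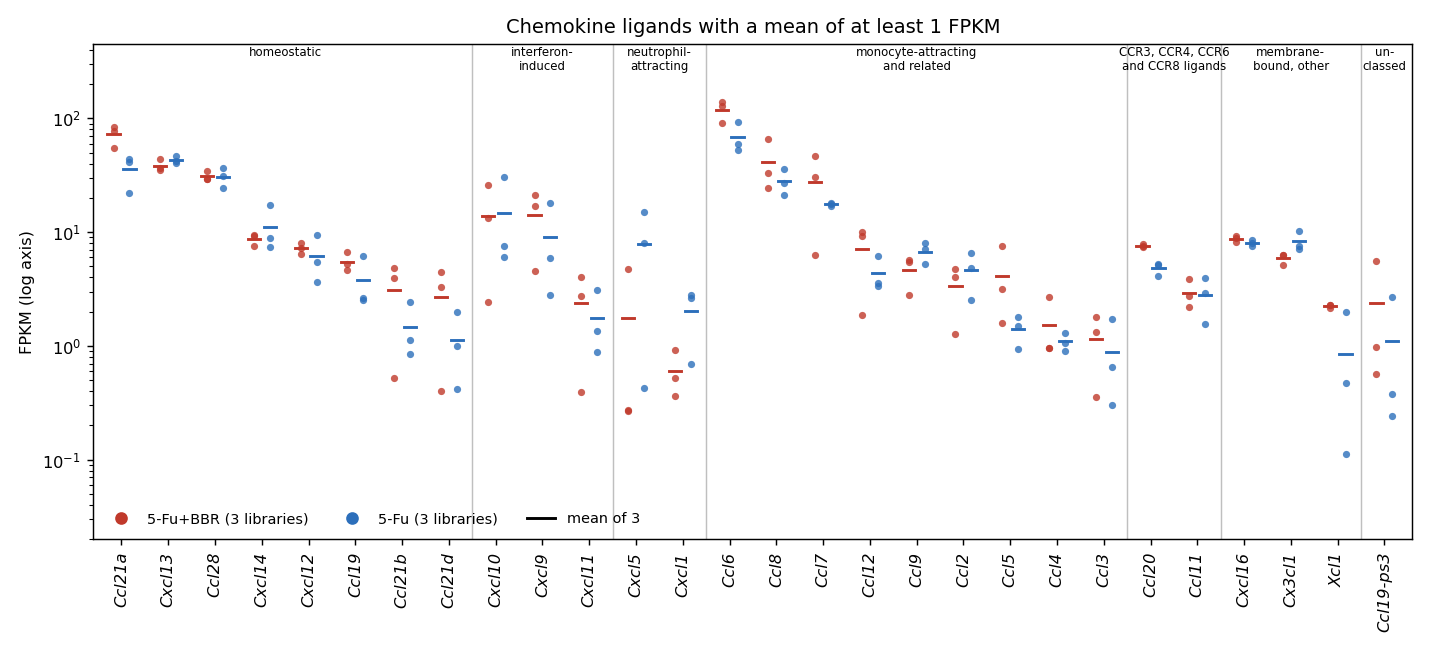
FPKM of the ligands with a mean of at least 1 FPKM in each library, on a log axis, with genes grouped by class along the x axis; points are single libraries and bars the mean of 3, with 5-Fu+BBR (red) left of 5-Fu (blue). Ccl21a and Ccl20 show no overlap between the groups, whereas the interferon-induced and neutrophil-attracting ligands spread widely within both groups.

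The interferon-induced class consists of Cxcl9, Cxcl10 and Cxcl11, the ligands of CXCR3 on activated T and NK cells. They lie side by side on chromosome 5 (92321347 to 92365485). The 250 bases before the start of Cxcl9 and Cxcl10 in RefSeq's GRCm38.p6 annotation are shown because interferon acts on these genes through their promoters. They are printed 5′ to 3′ on the gene's strand, which is minus for both genes. Capitals mark a match to the core of the interferon-stimulated response element, that is GAAA, any 2 bases and GAAA, searched on both strands.

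Cxcl9 (chr5:92328080-92328329, minus strand): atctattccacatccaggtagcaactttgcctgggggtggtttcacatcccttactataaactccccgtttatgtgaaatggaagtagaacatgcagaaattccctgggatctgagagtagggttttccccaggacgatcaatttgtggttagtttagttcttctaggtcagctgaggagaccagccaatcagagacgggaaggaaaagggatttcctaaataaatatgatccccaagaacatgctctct
Cxcl10 (chr5:92348890-92349139, minus strand): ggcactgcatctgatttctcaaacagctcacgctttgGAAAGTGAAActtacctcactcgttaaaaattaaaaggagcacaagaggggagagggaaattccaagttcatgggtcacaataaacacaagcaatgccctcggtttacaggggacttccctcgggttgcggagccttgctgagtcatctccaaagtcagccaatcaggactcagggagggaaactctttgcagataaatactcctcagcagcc

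The match in Cxcl10 starts 213 bases before the gene's start, and no match stands in the window of Cxcl9. Such a match is in 2.97% of the 32817 promoters of the table. It is in 3 of the 34 ligand windows searched, those of Cxcl10, Ccl19 and Cxcl14. Cxcl11 has no window among them and was not searched. The core of the gamma-activated site, TTCNNNGAA, is in 7.01% of all promoters, and neither of the printed windows holds it.

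Cxcl10 was at 25.8, 13.2 and 2.45 FPKM in 5-Fu+BBR, against 30.6, 7.51 and 6.08 FPKM in 5-Fu. Cxcl9 was at 21.2, 16.8 and 4.57 FPKM in 5-Fu+BBR, against 18.2, 2.83 and 5.92 FPKM in 5-Fu. Cxcl11, listed in the deposited table as both polymorphic pseudogene and protein coding, was at 4.04, 2.75 and 0.396 FPKM in 5-Fu+BBR, against 3.08, 0.888 and 1.36 FPKM in 5-Fu. In each gene libraries 1 and 2 of 5-Fu+BBR and library 1 of 5-Fu held the 3 highest values, so the split ran across the groups.

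The log2 fold changes were −0.06 ± 0.98 for Cxcl10, 0.66 ± 0.84 for Cxcl9 and 0.44 ± 0.86 for Cxcl11, with adjusted p-values by edgeR of 0.984, 0.758 and 0.854. With 5-Fu+BBR library 1 alone they were 0.86 for Cxcl10, 1.27 for Cxcl9 and 1.22 for Cxcl11. With SEs this large, differences of severalfold would not have been detectable. Ifng, the cytokine that induces these ligands, was named after its values were seen. It was at 0.370, 0.825 and 0.0496 FPKM in 5-Fu+BBR, against 1.94, 0.155 and 0.212 FPKM in 5-Fu. Its highest value was in 5-Fu library 1.

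The neutrophil-attracting class consists of Cxcl1, Cxcl2, Cxcl3, Cxcl5 and Cxcl15, which lie together on chromosome 5 (90759360 to 90905938). Of these, Cxcl1, Cxcl2, Cxcl3 and Cxcl5 act on CXCR2. Its summed level was 6.55, 0.912 and 0.736 FPKM in 5-Fu+BBR, against 11.9, 20.5 and 1.42 FPKM in 5-Fu. The 4 members that were tested all had a negative log2 fold change, with a median of −1.88. The promoters of Cxcl1, Cxcl2 and Cxcl3 are shown because they share a motif that few promoters hold. Capitals mark the match to a binding motif of NF-kappaB, that is GGGA, any base and TTTCC, searched on both strands of the 250 bases before the start in RefSeq's GRCm38.p6 annotation.

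Cxcl1 (chr5:90890995-90891244, plus strand): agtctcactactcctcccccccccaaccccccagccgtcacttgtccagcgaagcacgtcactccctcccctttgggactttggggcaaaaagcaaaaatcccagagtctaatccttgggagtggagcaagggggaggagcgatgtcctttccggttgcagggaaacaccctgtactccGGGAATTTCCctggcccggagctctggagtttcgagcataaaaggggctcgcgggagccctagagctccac
Cxcl2 (chr5:90903649-90903898, plus strand): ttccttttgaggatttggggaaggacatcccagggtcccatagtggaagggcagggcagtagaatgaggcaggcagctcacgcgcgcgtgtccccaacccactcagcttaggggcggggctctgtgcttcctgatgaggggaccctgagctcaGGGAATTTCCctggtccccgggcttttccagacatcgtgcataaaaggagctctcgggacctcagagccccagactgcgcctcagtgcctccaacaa
Cxcl3 (chr5:90785851-90786100, plus strand): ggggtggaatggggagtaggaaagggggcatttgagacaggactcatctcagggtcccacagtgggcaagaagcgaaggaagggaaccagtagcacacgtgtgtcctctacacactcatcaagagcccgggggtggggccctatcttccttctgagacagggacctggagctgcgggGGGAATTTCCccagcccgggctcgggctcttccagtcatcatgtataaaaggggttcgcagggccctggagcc

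The match starts 71 bases before the start of Cxcl1, 97 before that of Cxcl2 and 73 before that of Cxcl3. It is in 0.357% of the 32817 promoters and in no other of the 34 ligand promoters searched, which belong to 28 of the 40 genes. Cxcl5 is not among those genes, so its promoter was not searched. NF-kappaB is the textbook activator of these genes in response to bacterial products and interleukin 1. A match of letters is a description of the sequence and not evidence of binding.

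Cxcl1 (ENSMUSG00000029380), a main early neutrophil attractant, was at 0.923, 0.523 and 0.361 FPKM in 5-Fu+BBR, against 2.81, 2.63 and 0.688 FPKM in 5-Fu. These values rest on estimated counts of 127, 64 and 45 in 5-Fu+BBR and of 347, 370 and 85 in 5-Fu. The groups overlapped through 5-Fu library 3, which was below 5-Fu+BBR library 1. The log2 fold change was −1.70 ± 0.56, with an unadjusted p of 0.0162 and an adjusted p of 0.225 by edgeR.

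Cxcl5, which epithelial cells release, had the highest mean level of the class over the 6 libraries, although Cxcl1 was higher in 5-Fu+BBR libraries 2 and 3 and 5-Fu library 3. It was at 4.72, 0.275 and 0.268 FPKM in 5-Fu+BBR, against 8.10, 14.9 and 0.429 FPKM in 5-Fu (log2 fold change −2.05 ± 1.55, adjusted p = 0.585 by edgeR). Cxcl2, a neutrophil attractant made largely by macrophages and neutrophils themselves, was at 0.562, 0.0596 and 0.107 FPKM in 5-Fu+BBR, against 0.903, 2.33 and 0.147 FPKM in 5-Fu (log2 fold change −2.08 ± 1.10, adjusted p = 0.423 by edgeR). Cxcl3 was at 0.342, 0.0308 and 0 FPKM in 5-Fu+BBR, against 0.127, 0.561 and 0.1001 FPKM in 5-Fu. In all 4 genes the 3 highest libraries were library 1 of 5-Fu+BBR and libraries 1 and 2 of 5-Fu, and 5-Fu library 3 was the fourth.

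Neutrophil marker levels are given beside this class. The 7 markers summed to 22.6, 1.33 and 0.961 FPKM in 5-Fu+BBR, against 91.4, 72.6 and 5.16 FPKM in 5-Fu. S100a8, a calcium-binding protein abundant in neutrophils, was at 10.7, 0.311 and 0.155 FPKM in 5-Fu+BBR, against 43.7, 42.3 and 3.02 FPKM in 5-Fu. Libraries 1 and 2 of 5-Fu were the highest, followed by library 1 of 5-Fu+BBR. The sum rested mainly on S100a8, S100a9 and Retnlg. Csf3r, the receptor of the neutrophil growth factor G-CSF, did not follow that order, at 1.05, 0.605 and 0.657 FPKM in 5-Fu+BBR, against 1.06, 0.554 and 0.657 FPKM in 5-Fu. Of the defining markers, Elane was listed at 0 in every library but 5-Fu+BBR 1, Retnlg was listed at 0 in libraries 2 and 3 of 5-Fu+BBR, and Mpo in 5-Fu library 1. Cxcr2, the receptor of Cxcl1, Cxcl2, Cxcl3 and Cxcl5 and itself on the marker list, was at 0.133, 0.0404 and 0.0173 FPKM in 5-Fu+BBR, against 0.428, 0.167 and 0 FPKM in 5-Fu. The part of neutrophil number in these ligand levels was not tested.

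Leaving out single libraries moved the median log2 fold change of the class between −3.80 and −1.13. The lowest median came without 5-Fu+BBR library 1 and the highest without 5-Fu library 2. Library 1 of 5-Fu+BBR set alone against 5-Fu gave a median of −0.77, with a log2 fold change of −1.07 for Cxcl1 and a positive one of 0.46 for Cxcl3.

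The class of monocyte-attracting and related ligands draws monocytes, macrophages and T cells. All 9 were tested, 7 with a positive and 2 with a negative log2 fold change, with a median of 0.56. The summed level was 234, 251 and 145 FPKM in 5-Fu+BBR, against 118, 135 and 146 FPKM in 5-Fu, and overlapped through 5-Fu+BBR library 3.

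Ccl6 (ENSMUSG00000018927), a rodent CCR1 ligand of macrophages and other myeloid cells, had the highest level of all ligands. It was at 139, 128 and 90.5 FPKM in 5-Fu+BBR, against 52.5, 59.8 and 93.0 FPKM in 5-Fu. Libraries 1 and 2 of 5-Fu+BBR lay above every 5-Fu library, but 5-Fu+BBR library 3 lay just below 5-Fu library 3. The log2 fold change was 0.78 ± 0.29 (unadjusted p = 0.0293, adjusted p = 0.269 by edgeR), and 1.05 with 5-Fu+BBR library 1 alone. Ccl6 made up a mean of 26.9% of the summed ligand FPKM in 5-Fu+BBR and 20.6% in 5-Fu. The corresponding shares of Ccl21a were 16.3% and 10.7%, and those of Cxcl13 were 8.89% and 13.03%.

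Ccl2, Ccl7 and Ccl12 are CCR2 ligands that draw monocytes, and Ccl8 is a relative of them. Ccl7 was at 46.6, 30.4 and 6.33 FPKM in 5-Fu+BBR, against 17.7, 16.95 and 18.1 FPKM in 5-Fu. The 3 libraries of 5-Fu lay close together, whereas those of 5-Fu+BBR lay on both sides of them. Without 5-Fu+BBR library 3 the log2 fold change of Ccl7 was 1.14 (adjusted p = 0.146 by edgeR), against 0.67 ± 0.66 with all libraries. Over the fits that each left out 1 library it ran from 0.02 to 1.14. Ccl12 was at 9.17, 10.1 and 1.86 FPKM in 5-Fu+BBR, against 3.39, 6.17 and 3.59 FPKM in 5-Fu, with the same library of 5-Fu+BBR as the lowest.

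Ccl8 was at 24.3, 66.0 and 33.1 FPKM in 5-Fu+BBR, against 27.1, 35.5 and 21.0 FPKM in 5-Fu (log2 fold change 0.56 ± 0.35). Library 2 of 5-Fu+BBR stood above the other 5 libraries. Library 1 of 5-Fu+BBR alone against 5-Fu gave a negative value of −0.15. Ccl2 was at 4.72, 3.995 and 1.27 FPKM in 5-Fu+BBR, against 6.53, 4.85 and 2.55 FPKM in 5-Fu (log2 fold change −0.45 ± 0.51). Ccl9, a CCR1 ligand of myeloid cells, was at 5.51, 5.66 and 2.81 FPKM in 5-Fu+BBR, against 7.04, 7.98 and 5.22 FPKM in 5-Fu (log2 fold change −0.52 ± 0.27, adjusted p = 0.401 by edgeR). These 2 genes were the members of the class with a lower mean in 5-Fu+BBR.

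Ccl5 (ENSMUSG00000035042), a ligand released by T and NK cells, was at 1.59, 3.16 and 7.54 FPKM in 5-Fu+BBR, against 1.498, 0.930 and 1.80 FPKM in 5-Fu. Its values in 5-Fu+BBR were spread over a wide range, and library 1 lay within the range of 5-Fu. The log2 fold change was 1.5 ± 0.57 (unadjusted p = 0.0308, adjusted p = 0.273 by edgeR), and 0.19 with 5-Fu+BBR library 1 alone. Ccl4, which attracts monocytes and T cells, was at 0.960, 2.68 and 0.964 FPKM in 5-Fu+BBR, against 1.31, 1.07 and 0.908 FPKM in 5-Fu. Ccl3, a CCR1 ligand of macrophages, was at 1.31, 1.81 and 0.356 FPKM in 5-Fu+BBR, against 0.649, 1.72 and 0.299 FPKM in 5-Fu. Both overlapped between the groups.

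The 6 macrophage and monocyte markers summed to 389, 487 and 370.3 FPKM in 5-Fu+BBR, against 229, 249.7 and 285 FPKM in 5-Fu, without overlap and with no marker at 0. The sum rested mainly on Lyz2. Of the 6, only Adgre1 overlapped between the groups, at 1.91, 2.48 and 1.88 FPKM in 5-Fu+BBR, against 1.96, 2.21 and 2.01 FPKM in 5-Fu. The part of macrophages and monocytes in the levels of Ccl6 and the CCR2 ligands was not tested. In 5-Fu+BBR library 3, the summed markers were above all 5-Fu libraries, but Adgre1 was the lowest of the 6. Ccl7, Ccl12, Ccl9 and Ccl2 were the lowest of the 6 in this library too.

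Among the ligands of CCR3, CCR4, CCR6 and CCR8, 3 of the 5 tested had a positive and 2 a negative log2 fold change, with a median of 0.08. Ccl20 (ENSMUSG00000026166, chromosome 1, 83116766 to 83119167) is the CCR6 ligand that the epithelium over lymphoid follicles makes to draw B cells, dendritic cells and T helper cells. It was at 7.48, 7.34 and 7.92 FPKM in 5-Fu+BBR, against 4.13, 5.13 and 5.25 FPKM in 5-Fu. The libraries of each group lay close together and the groups did not overlap. The log2 fold change was 0.64 ± 0.18, 1.55-fold, with the smallest p of the ligands (unadjusted p = 0.00707, adjusted p = 0.173 by edgeR). Library 1 of 5-Fu+BBR alone gave 0.66.

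Ccl22, a CCR4 ligand of dendritic cells and macrophages, was at 1.23, 2.00 and 0.972 FPKM in 5-Fu+BBR, against 0.241, 1.20 and 0.299 FPKM in 5-Fu (log2 fold change 1.3 ± 0.60, adjusted p = 0.349 by edgeR). Its groups overlapped through 5-Fu library 2. The dendritic cell markers, which include Ccr7 and Xcr1, summed to 5.74, 10.03 and 7.19 FPKM in 5-Fu+BBR, against 2.31, 3.32 and 2.80 FPKM in 5-Fu. Of them, Cd209a was listed at 0 in 5-Fu library 1. Ccl11, the eosinophil attractant eotaxin, was at 2.72, 3.87 and 2.20 FPKM in 5-Fu+BBR, against 2.90, 3.98 and 1.57 FPKM in 5-Fu.

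Ccl24, a further eosinophil attractant, was at 0.575, 0.686 and 0 FPKM in 5-Fu+BBR, against 0.897, 1.35 and 0.800 FPKM in 5-Fu. The groups did not overlap, but the spread within 5-Fu+BBR was large (log2 fold change −1.25 ± 1.06, adjusted p = 0.624 by edgeR). Ccl17, a CCR4 ligand next to Cx3cl1 and Ccl22 on chromosome 8, was listed at 0 in libraries 2 and 3 of 5-Fu+BBR and at 1.21 FPKM in library 1, against 1.21, 0.258 and 0.547 FPKM in 5-Fu.

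Cx3cl1 (ENSMUSG00000031778) encodes fractalkine, a membrane-bound ligand of CX3CR1 on monocytes and macrophages. It was at 6.32, 5.09 and 6.23 FPKM in 5-Fu+BBR, against 10.3, 7.57 and 7.11 FPKM in 5-Fu. Each 5-Fu+BBR library was below each 5-Fu library. The log2 fold change was −0.50 ± 0.17 (unadjusted p = 0.0197, adjusted p = 0.239 by edgeR), and −0.36 with 5-Fu+BBR library 1 alone. Cxcl16, the other membrane-bound ligand and the partner of CXCR6, was at 8.93, 9.22 and 8.13 FPKM in 5-Fu+BBR, against 8.48, 7.63 and 8.04 FPKM in 5-Fu (log2 fold change 0.12 ± 0.12).

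Xcl1, which T and NK cells release for XCR1-bearing dendritic cells, was at 2.28, 2.14 and 2.31 FPKM in 5-Fu+BBR, against 0.476, 0.112 and 1.98 FPKM in 5-Fu. The 5-Fu+BBR libraries agreed closely, and 5-Fu library 3 lay just below them. On the TMM-scaled counts that library overlapped with 5-Fu+BBR (log2 fold change 1.3 ± 0.84, adjusted p = 0.511 by edgeR). Without it the log2 fold change was 2.90 (adjusted p = 0.105 by edgeR), the highest of the fits that each left out 1 library. The lowest was 0.77.

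The pseudogene Ccl19-ps3 was at 5.55, 0.977 and 0.571 FPKM in 5-Fu+BBR, against 0.376, 2.68 and 0.241 FPKM in 5-Fu. It is identical to Ccl19 over 324 aligned bases, so reads from that stretch cannot be told from those of Ccl19. The 5 genes that were not tested were Ccl1, Ccl27b, Cxcl15, Cxcl17 and the pseudogene Ccl19-ps1. None exceeded 0.321 FPKM in any library.

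Neighbouring genes did not all share a direction. The chromosome 4 cluster of Ccl19, Ccl21 and Ccl27 genes (41769467 to 42773993) had 6 tested members, all with a positive log2 fold change. The cluster of neutrophil-attracting ligands on chromosome 5 had 4, all negative. The other clusters held both signs, with 4 positive and 1 negative in each of the 2 clusters of CC ligands on chromosome 11. Such counts are not independent. On chromosome 4, near-identical copies can share reads. The 4 neutrophil-attracting genes were all highest in the same libraries, namely library 1 of 5-Fu+BBR and libraries 1 and 2 of 5-Fu.

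Libraries also differed across the ligands as a whole. The summed ligand FPKM was 503, 507 and 326 in 5-Fu+BBR, against 317, 351 and 328 in 5-Fu. Library 3 of 5-Fu+BBR thus lay within the range of 5-Fu. It was the lowest of the 6 libraries for 14 of the 35 tested ligands, ties included, and library 1 of 5-Fu+BBR was the lowest for none.

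**Figure D3:**
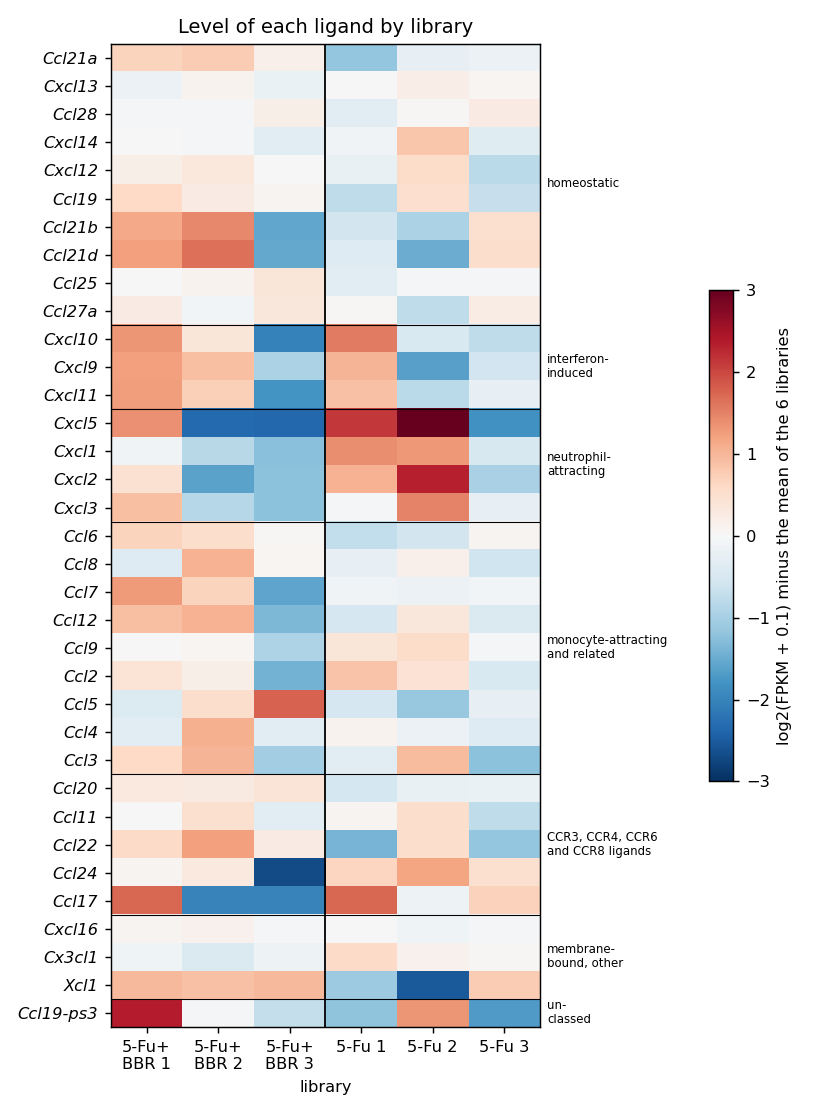
Level of each library as log2(FPKM + 0.1) minus the gene's mean over the 6 libraries, in colour from blue (low) to red (high), for the tested chemokine ligands; rows are genes by class and columns are libraries, 5-Fu+BBR left of 5-Fu. The interferon-induced ligands are high in 5-Fu+BBR 1 and 2 and 5-Fu 1, and the neutrophil-attracting ligands in 5-Fu+BBR 1 and 5-Fu 1 and 2.

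The receptors of these ligands had mostly positive log2 fold changes. Of 24 listed receptors, 23 are in the table and 20 were tested, 18 with a positive and 2 with a negative log2 fold change (Cxcr2 and Ackr1), and the median was 0.86. None passed an adjusted p under 0.05 by edgeR. At an unadjusted p under 0.05, 10 were higher in 5-Fu+BBR and 0 lower, 50% of the 20 against 9.48% of all genes. The FPKM of the groups did not overlap for 8 of them, 40% against 11.5% of all genes. The count of 10 rested on single libraries in part, since it was 4 without 5-Fu+BBR library 2 and 5 without 5-Fu library 1. Over all genes, the count in either direction also fell in these fits, from 3128 to 1888 and 2062. DESeq2 passed 4 at an adjusted p under 0.05, where 6.48% of all genes to which it gave an adjusted p passed. They were Ccr7 (0.00681), Cxcr5 (0.0118), Xcr1 (0.0124) and Ccr6 (0.0185), all higher.

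Ccr7, the receptor of Ccl19 and Ccl21, was at 2.33, 4.17 and 2.28 FPKM in 5-Fu+BBR, against 0.535, 1.58 and 0.847 FPKM in 5-Fu (log2 fold change 1.57 ± 0.41, adjusted p = 0.159 by edgeR). Cxcr5, the receptor of Cxcl13 on follicular B and T cells, was at 4.87, 4.65 and 3.87 FPKM in 5-Fu+BBR, against 0.809, 2.92 and 1.51 FPKM in 5-Fu (log2 fold change 1.37 ± 0.40, adjusted p = 0.197 by edgeR). Ccr6, the receptor of Ccl20, was at 2.20, 3.24 and 2.48 FPKM in 5-Fu+BBR, against 0.235, 1.46 and 0.660 FPKM in 5-Fu (log2 fold change 1.75 ± 0.55, adjusted p = 0.217 by edgeR). All 3 were higher in each 5-Fu+BBR library than in any 5-Fu library. The ligands of Ccr7 and Ccr6, Ccl21a and Ccl20, stood higher as well, whereas Cxcl13 overlapped between the groups while its receptor did not.

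Xcr1, the receptor of Xcl1 on a class of dendritic cells, was at 0.248, 0.673 and 0.555 FPKM in 5-Fu+BBR, against 0.102, 0.0995 and 0.194 FPKM in 5-Fu (log2 fold change 1.84 ± 0.48, adjusted p = 0.157 by edgeR, and 0.91 with 5-Fu+BBR library 1 alone). Ccrl2, a non-signalling receptor that binds chemerin, was at 4.36, 4.97 and 1.29 FPKM in 5-Fu+BBR, against 1.47, 1.54 and 1.39 FPKM in 5-Fu, and overlapped through 5-Fu+BBR library 3. Cx3cr1 was higher in each 5-Fu+BBR library (log2 fold change 0.45 ± 0.16, adjusted p = 0.245 by edgeR), the opposite sign to that of its ligand Cx3cl1.

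Cxcr4, the receptor of Cxcl12, had a log2 fold change of 0.85 ± 0.36 without overlap. Ccr10, the receptor of Ccl28, had 1.03 ± 0.44 and the scavenging receptor Ackr4, which takes up Ccl19 and Ccl21, had 1.13 ± 0.48, both with overlap. With 5-Fu+BBR library 1 alone, these values were 0.31 for Ccr10 and 0.30 for Ackr4, and that of Cxcr4 was 0.47. Many of these receptors are carried by the lymphocytes and dendritic cells whose summed markers were also higher. The part of cell number in the receptor levels was not tested.

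**Figure D4:**
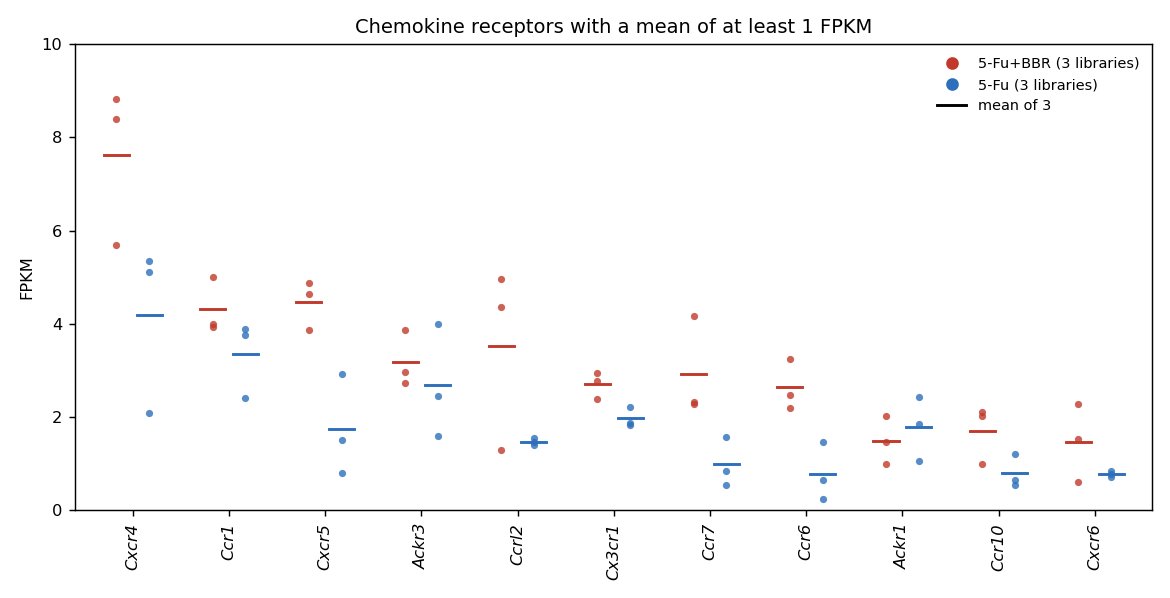
FPKM of the tested chemokine receptors with a mean of at least 1 FPKM in each library, on a linear axis; points are single libraries and bars the mean of 3, with 5-Fu+BBR (red) left of 5-Fu (blue). Ccr6, Ccr7 and Cxcr5 show no overlap between the groups, and Ccrl2 overlaps through 5-Fu+BBR 3.

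Of 17 listed cytokines and signalling genes that induce chemokines, 15 were tested, 7 with a positive and 8 with a negative log2 fold change. The median was −0.03, so the list had no common direction. At an unadjusted p under 0.05, 3 were higher in 5-Fu+BBR and 0 lower, 20% of the 15 against 9.48% of all genes. Leaving out 1 library gave 2 to 5 such genes in either direction. Of the 3, Ltb and Lta encode lymphotoxins, which act on stromal cells to maintain homeostatic chemokines in lymphoid tissue. Ltb was at 17.2, 20.5 and 16.2 FPKM in 5-Fu+BBR, against 4.21, 10.6 and 4.03 FPKM in 5-Fu, without overlap (log2 fold change 1.54 ± 0.34, adjusted p = 0.140 by edgeR). Lta was at 2.23, 1.71 and 2.09 FPKM in 5-Fu+BBR, against 0.721, 1.73 and 0.670 FPKM in 5-Fu (log2 fold change 0.97 ± 0.38, adjusted p = 0.285 by edgeR). Its groups overlapped slightly, through 5-Fu library 2.

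Pf4 and Ppbp are chemokines of platelets that lie outside the naming rule. Pf4 was at 3.56, 3.74 and 2.85 FPKM in 5-Fu+BBR, against 4.81, 7.58 and 1.62 FPKM in 5-Fu, and Ppbp did not exceed 0.233 FPKM. Both overlapped between the groups.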

How the data were processed

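RNA was measured in 6 libraries of whole BALB/c colon, with 3 in each group as labelled. Per the labels' protocols, polyadenylated RNA gave strand-marked paired-end libraries with molecular identifiers. The submitters' processing notes list the build GRCm38 and, without stating roles, StringTie 1.3.4d, HISAT2 2.0.4, cutadapt 1.9, edgeR, DESeq2 and UMI-tools. No annotation version is stated there. The authors deposited 1 table with an estimated count and an FPKM per gene and library.

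Between 92.1% and 93.2% of genes with 1 transcript and over 50 counts had a count within 2% of FPKM times length and a constant, which would hold for counts of fragments and for estimates from coverage alike. Which of these they are was not tested, and the precision of low genes may be overstated. The deposited estimated counts were used as whole numbers. Depth is the sum of these counts. Genes passing filterByExpr were scaled with TMM and tested two-sided by robust quasi-likelihood in edgeR 4.0.16 (R 4.3.3), with Benjamini-Hochberg adjustment over 20101 genes and without covariates, at a biological coefficient of variation of 0.296. Levels are the deposited FPKM.

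The ligands, lists and classes were chosen with earlier results of these data known, so no list was tested. Values of some receptor and signalling genes are not reported here. Genes with a mean of at least 1 FPKM or an unadjusted p under 0.05 were named with the value of every library. Promoter windows came from RefSeq (GRCm38.p6), and copies were aligned on the annotated transcripts of the reference. The steps were tested on simulated data. Alternatives were DESeq2 1.42.0, limma 3.58.1 (voom, and trend on log2(FPKM + 1) and log2(FPKM + 0.1)), DESeq2's size factors, other filters, counts divided by 4, a replicate block and left-out libraries. Whether replicate numbers pair the libraries is not stated. Correlations of same-numbered libraries were 0.0579, 0.0242 and 0.123, and those of differently numbered ones ran from −0.146 to 0.104. With 3 libraries per group these values cannot decide it.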

Additional observations from a re-analysis of the deposited data

How the results depend on the processing

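Of the values computed again for single genes under the alternatives, 960 kept their direction and their side of the threshold, 34 changed sign and 11 passed the threshold only under the alternative. Medians and counts were judged by other limits. A median was called kept if it moved by less than the spread of its class between libraries, whatever its sign. A count was called kept if its ratio to the main count stayed within a set limit. Of the medians and main counts 145 kept and 8 moved, and of the other counts 91 kept and 28 moved. The kept interferon-induced median was 0.44 with all libraries and −0.213 without 5-Fu+BBR library 1. DESeq2 called 1227 genes, against 15 by edgeR, among them 3 ligands and 4 receptors, where edgeR called 0. Leaving out 1 library called between 0 and 159 genes, and 5-Fu+BBR library 1 alone called 0, with 77 without a filter and 9 on log2(FPKM + 0.1). The same number in both groups marks no stated pairing. A replicate block called 113 genes and 0 ligands, with 8 ligands and 3204 of all genes at an unadjusted p under 0.05. Leaving out 1 library gave 2 to 10 such ligands, against 6 with all. The number was 10 without 5-Fu+BBR library 1, 3 without 5-Fu+BBR library 2 and 2 without 5-Fu library 1. All genes at that level numbered 2894, 1888 and 2062 in these fits, against 3128 with all libraries. The neutrophil-attracting median ran from −3.80 to −1.13. The median of membrane-bound and other ligands was 0.705 without a filter, and that of CCR3, CCR4, CCR6 and CCR8 ligands 0.657 with 5-Fu+BBR library 1 alone.

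With 5-Fu+BBR library 1 alone, the log2 fold change was −0.147 for Ccl8, 0.0798 for Ccl2, −0.127 for Ccl4, 0.878 for Ccl17, 0.858 for Cxcl10, 0.459 for Cxcl3, −0.156 for Ccr9 and −0.333 for Cxcr6. Ccl28 was at 0.00914 with a filter of 50 counts, 0.0222 with voom, 0.023 with the replicate block, 0.0257 on log2(FPKM + 1), 0.027 on log2(FPKM + 0.1) and 0.00902 with counts divided by 4. Over left-out libraries the log2 fold change ran from −0.152 to 0.21 for Ccl28, −0.213 to 1.07 for Cxcl11, −0.446 to 2.83 for Ccl19-ps3, −0.443 to 1.74 for Ppbp, −0.15 to 0.722 for Ccl4, −0.00646 to 1.25 for Ccl3, −0.173 to 0.357 for Ccl11, −0.934 to 1.04 for Cxcl10, −7.58 to 0.00411 for Ccl17, −1.79 to 1.11 for Ifng, −0.495 to 0.0766 for Cxcl14, −4.03 to 0.125 for Cxcl3 and −0.805 to 0.0511 for Pf4. The cause of these changes was not tested. Depth limits Cxcl2, Cxcl3, Ccl17, Ccl24, Ccl27a, Ccl19-ps3 and Xcl1, whose lowest libraries had under 10 estimated counts.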
